A study of Mus musculus with 10 samples.

Results

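The genes described here encode the nonfibrillar collagens. They were chosen by symbol, as every gene of the GENCODE vM21 annotation named Col, a number, a and a second number, apart from 11 genes whose chains build the banded fibrils (Col1a1, Col1a2, Col2a1, Col3a1, Col5a1, Col5a2, Col5a3, Col11a1, Col11a2, Col24a1 and Col27a1). The rule gave 33 of the 40620 genes in the count table and 33 of its 44 collagen genes, and used no measured value. The RNA came from MC3T3-E1, a line of mouse pre-osteoblasts that lays down a mineralizing matrix in culture, and was sequenced at 5 stages with 2 libraries each, named replicates A and B. Subconfluent and confluent cells grew in αMEM with 10% serum. Cells of the 24 h, 14 d and 21 d stages had then been kept for that time in that medium with β-glycerophosphate at 10 mM and ascorbic acid at 50 µg/ml added. All libraries come from 1 cell line, and the labels do not say whether replicates were separate cultures, so p-values measure the spread between these libraries, which may be technical.

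Collagens are trimers of chains with a repeated glycine motif. The nonfibrillar ones do not form banded fibrils themselves. Collagen IV makes the sheet of basement membranes, collagen VI makes beaded filaments around cells, and collagens VIII and X make short-chain networks. The FACIT collagens (collagens with interrupted triple helices, such as IX, XII, XIV and XVI) sit on the surface of fibrils, the multiplexins XV and XVIII lie at basement membranes and carry fragments that act on vessels, and the transmembrane collagens XIII, XVII, XXIII and XXV are held in the cell membrane. In bone the matrix is mostly the fibrillar collagen I, around which these collagens are minor parts.

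Levels are given as RPKM (a read count divided by gene length and by library size), as the authors deposited them, since levels of different genes can be compared only per length. Differences between stages were fitted on counts with edgeR's quasi-likelihood test over all 10 libraries and are given as log2 fold changes with their standard errors. A gene is called, and said to rise or fall, at a Benjamini-Hochberg adjusted p under 0.05 over all 20808 genes tested and a change of more than 2-fold. Total counts ran from 44736156 to 162939333 per library, and the 33 members took 0.519% to 0.942% of them. The 24 h replicates stood apart. The log2 ratio of replicate A to B had an SD of 0.685 there and 0.287 to 0.325 at the other stages, over 16133 genes, and at 24 h it went down with gene length (Spearman's rho -0.41 across genes, which are not independent). At the other stages that ratio went up with gene length, with rho from 0.10 at 14 d to 0.34 in confluent cells. The column names show that the 3 early stages used one pair of library indexes and the 14 d and 21 d libraries a different pair, so between these sets of stages the stage and the library set cannot be told apart. Comparisons within a set were made as well. The label osteoblast was checked with 6 osteoblast genes (Runx2, Sp7, Alpl, Ibsp, Bglap and Dmp1), whose summed level was 59.7 to 67.0 RPKM in subconfluent cells, 5433 to 5573 RPKM at 14 d and 3614 to 3786 RPKM at 21 d. The summed level of 8 endothelial markers was at most 0.575 RPKM and that of 6 adipocyte markers at most 1.09 RPKM, while Epcam, Krt18, Myod1 and Ptprc, which define epithelium, muscle and blood cells, were at 0 in every library. Of the other epithelial genes, Krt14 was at 5.68 to 8.96 RPKM at 14 d and 21 d and at 0.572 to 2.34 RPKM before. Krt5 was at 0.537 to 2.45 RPKM at 14 d and 21 d and at 0.1035 to 0.389 RPKM before. Of the muscle genes, Acta1 was at 37.1 to 43.6 RPKM in subconfluent and confluent cells and at 14.3 to 18.7 RPKM at 14 d and 21 d. Tyrobp, a macrophage gene, stood at 179, 214 and 256 RPKM in confluent replicate B, 14d replicate B and 21d replicate A and at most 0.842 RPKM in the other libraries. Of the other macrophage genes, Csf1r was at 1.83 to 3.19 RPKM, Cd14 at 1.98 to 2.51 RPKM and Cd68 at 0.464 to 0.936 RPKM over all libraries. Adgre1 was at most 0.0094 RPKM. The part of other cell types in the values below was not tested beyond this, and in bulk RNA fewer cells of a kind and less RNA per cell cannot be told apart.

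The members differed widely in level. By their highest stage mean, 5 members reached at least 100 RPKM, 9 lay between 10 and 100 RPKM, 4 between 1 and 10 RPKM, and 15 stayed under 1 RPKM at every stage. Col6a1, Col6a2, Col6a3, Col8a2 and Col16a1 had the highest means over the 10 libraries. Members at or above 1 RPKM in every library numbered 13. At the other end, Col4a3, Col14a1, Col19a1 and Col25a1 had at most 10, 8, 4 and 2 counts in any library and were left out of the tests by the filter on low counts, so 29 members were tested. Several tested members, Col9a1 and Col13a1 among them, passed that filter only through the stages where they were high, so counts over tested members are a description.

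**Figure D1:**
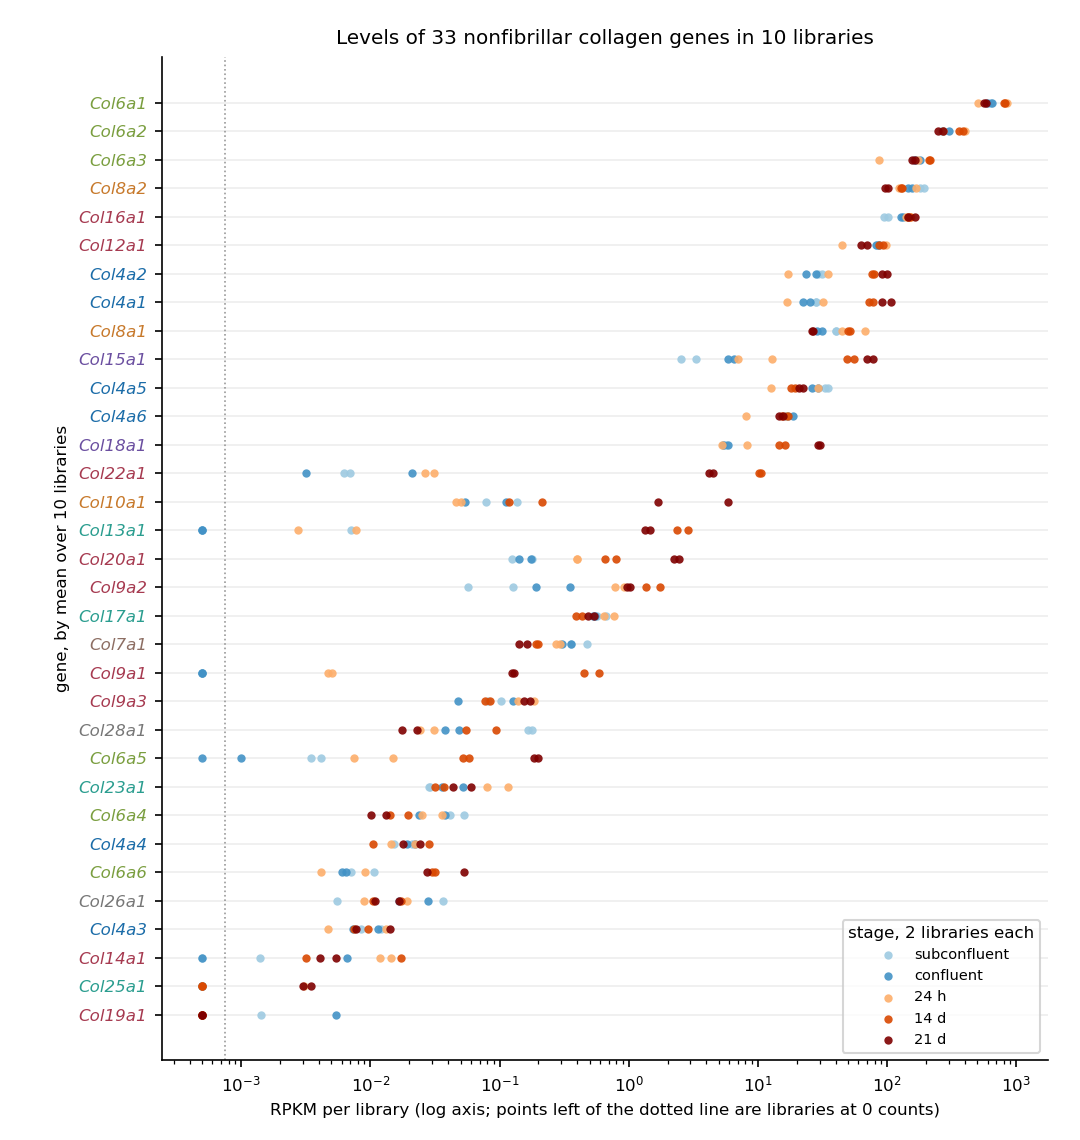
RPKM of each of the 33 members (rows, ordered by their mean) in each of the 10 libraries (points, coloured by stage) on a log axis, with gene names coloured by structural class and libraries at 0 counts drawn left of the dotted line. Col6a1 lies at 509.7 to 853 RPKM in all libraries, while the points of Col22a1, Col13a1 and Col15a1 fall into a low early and a high late set.

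At 21 d, 12 of the 29 tested members were higher than in subconfluent cells and 3 were lower. Over all genes tested 27.6% were called in this comparison, 16.3% higher and 11.3% lower, and with library size alone as the scaling 48.9% of the called genes were higher. At any fold change 13 members were higher and 5 lower, where 50.7% of all genes passed. Col22a1, Col13a1, Col9a1, Col6a5, Col10a1, Col15a1, Col20a1, Col9a2, Col18a1, Col6a6, Col4a1 and Col4a2 rose, and Col28a1, Col6a4 and Col7a1 fell. The members' median log2 fold change was 0.78, with that of all genes tested at 0.04. Setting the members at 0 or 1 count in subconfluent cells to the lower end of their fold left it at 0.78. That could not have come out otherwise, since these lower ends still lie above the median. At 14 d, 11 of the 29 were higher than in confluent cells and 0 were lower, while 13% of all genes tested were called, 9.15% higher and 3.85% lower, and with library size alone 49.8% of the called genes were higher. The 0 is from edgeR's test, with 1 member lower at an unadjusted p under 0.05 and 0 called lower by DESeq2. At any fold change 14 members passed, each of them higher, where 32.1% of all genes passed. The 11 were the genes that rose at 21 d apart from Col10a1. The median was 0.61 for the members and 0.03 for all genes. Both comparisons cross the index sets.

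**Figure D2:**
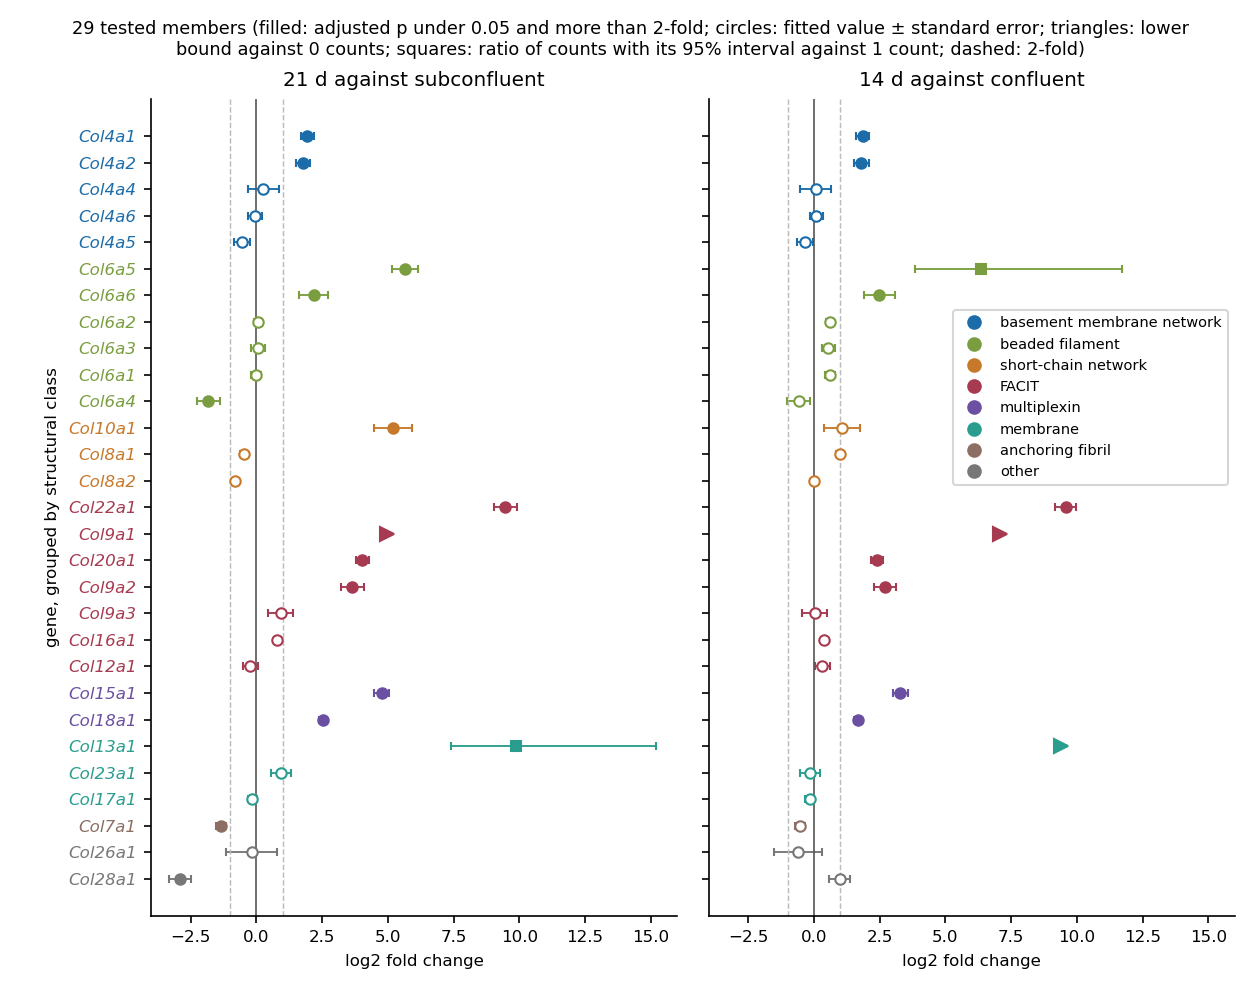
Log2 fold change of the 29 tested members at 21 d against subconfluent cells (left) and at 14 d against confluent cells (right), grouped and coloured by structural class, with the fitted value and its standard error, or a lower bound or counting interval where the earlier stage had 0 or 1 count. Col4a1 and Col4a2 lie between 1.78 and 1.94 in both panels while Col6a1, Col6a2 and Col6a3 lie between -0.03 and 0.07 in the left one.

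The genomic sequence just before the start was read from RefSeq on GRCm38.p6 for the members with an entry, 27 of the 33. The 250 bases before the start of Col10a1, Col13a1, Col15a1 and Col9a1 are shown as examples of genes that rose, with no annotated exon in the window shown. In subconfluent cells Col10a1, Col13a1 and Col9a1 were at most 0.136 RPKM, while Col15a1 had 3.32 and 2.55 RPKM. Col6a5 also rose and has no annotated exon in its window, which holds 8 CG dinucleotides and is not shown. Col9a1 has a second start further on, whose window holds a Col9a1 exon and is not shown either. Capitals mark CG dinucleotides, and each sequence is written 5′ to 3′ on the strand of its gene. They lie at chr10:34389731-34389980 on the plus strand (Col10a1), chr10:61979109-61979358 on the minus strand (Col13a1), chr4:47207762-47208011 on the plus strand (Col15a1) and chr1:24177360-24177609 on the plus strand (Col9a1).
Col10a1: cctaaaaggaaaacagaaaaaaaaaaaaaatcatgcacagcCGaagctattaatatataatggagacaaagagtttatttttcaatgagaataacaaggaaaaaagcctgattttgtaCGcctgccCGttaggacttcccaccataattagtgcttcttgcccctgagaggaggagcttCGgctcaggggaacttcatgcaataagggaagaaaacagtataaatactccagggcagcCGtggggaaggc
Col13a1: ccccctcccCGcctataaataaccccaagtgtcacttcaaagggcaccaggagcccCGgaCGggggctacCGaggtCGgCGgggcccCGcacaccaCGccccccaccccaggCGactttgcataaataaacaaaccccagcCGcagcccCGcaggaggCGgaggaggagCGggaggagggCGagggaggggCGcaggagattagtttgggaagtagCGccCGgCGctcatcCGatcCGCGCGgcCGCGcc
Col15a1: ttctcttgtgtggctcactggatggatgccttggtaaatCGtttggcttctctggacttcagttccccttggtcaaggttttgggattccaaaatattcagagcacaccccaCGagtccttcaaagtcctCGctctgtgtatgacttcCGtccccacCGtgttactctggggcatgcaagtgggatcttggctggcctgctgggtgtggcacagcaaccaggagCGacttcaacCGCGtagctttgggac
Col9a1: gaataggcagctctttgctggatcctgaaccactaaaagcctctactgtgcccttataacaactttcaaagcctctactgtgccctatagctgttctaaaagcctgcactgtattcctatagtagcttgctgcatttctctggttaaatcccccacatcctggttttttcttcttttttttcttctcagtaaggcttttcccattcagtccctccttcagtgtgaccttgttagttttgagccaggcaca
These windows hold 5, 24, 8 and 0 CG dinucleotides in that order. Over all 32851 such windows in the annotation the median was 6, with quartiles of 2 and 16, and over the 30 windows of members it was 8.5, from 0 to 31. The shown genes thus started from windows both rich and poor in CG. Motifs were searched on both strands. TATAAA occurred in the windows of Col10a1 and Col13a1 among the shown genes and in 12.37% of all windows. TGTGGT, the core bound by RUNX factors, occurred in 3 of the 30 windows of members, 1 each of Col8a1, Col17a1 and Col18a1, and in 14.05% of all windows. TGANTCA, the AP-1 motif, occurred in 1 of the 30 windows of members, that of Col6a1, and in 6.75% of all windows. A match is a description of the letters and not a binding site.

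Col4a1 and Col4a2, which together form the common collagen IV trimer, rose, while Col4a5 and Col4a6, which form another, were not called, and Col4a3 and Col4a4 were near 0. Col4a1 had 28.2 and 28.1 RPKM in subconfluent cells, 25.5 and 22.4 RPKM in confluent cells, 16.8 and 31.8 RPKM at 24 h, 77.5 and 72.1 RPKM at 14 d and 107 and 92.0 RPKM at 21 d. Col4a2 had 29.1 and 31.5 RPKM, 28.4 and 23.7 RPKM, 17.1 and 35.2 RPKM, 79.4 and 76.5 RPKM, and 100.4 and 91.3 RPKM in the same order. For both genes every 14 d and 21 d library lay above every earlier one, and by their ratio the 24 h replicates differed most. The log2 fold change of Col4a1 was 1.94 (SE 0.24, adjusted p = 0.000502) at 21 d against subconfluent cells and 1.86 (SE 0.24, adjusted p = 0.00148) at 14 d against confluent cells. For Col4a2 it was 1.78 (SE 0.27, adjusted p = 0.00137) and 1.80 (SE 0.28, adjusted p = 0.00273). Within the late set neither differed past the threshold between 21 d and 14 d (0.34, adjusted p = 0.474, and 0.22, adjusted p = 0.717), and within the early set confluent cells did not pass either (-0.26, adjusted p = 0.662, and -0.24, adjusted p = 0.728).

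Col4a5 gave 33.1 and 34.8 RPKM in subconfluent cells, 29.2 and 26.1 RPKM in confluent cells, 12.7 and 29.0 RPKM at 24 h, 18.2 and 19.2 RPKM at 14 d and 22.3 and 20.7 RPKM at 21 d. All late libraries thus lay below the subconfluent and confluent ones, but the log2 fold change at 21 d against subconfluent cells, -0.54 (SE 0.30), did not pass the test (adjusted p = 0.169). Col4a6 lay between 8.15 and 18.7 RPKM in all libraries, with a log2 fold change of -0.05 (SE 0.26, adjusted p = 0.902). The ratio of Col4a5 to Col4a6 in RPKM was 1.92 and 2.08 in subconfluent, 1.56 and 1.58 in confluent, 1.56 and 1.75 in 24 h, 1.07 and 1.26 in 14 d and 1.42 and 1.41 in 21 d libraries. The ratio of Col4a1 to Col4a2 moved far less, from a mean of 0.931 ± 0.053 (SD, n = 2) in subconfluent cells to 1.04 ± 0.041 (SD, n = 2) at 21 d. No test was made on ratios.

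**Figure D3:**
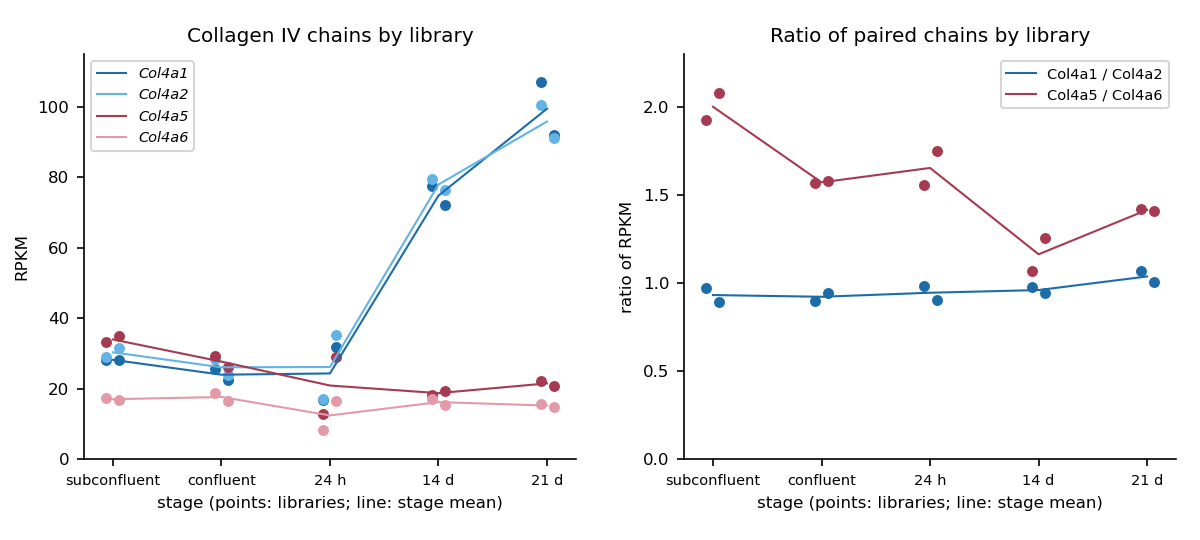
Left, RPKM of the collagen IV chains Col4a1, Col4a2, Col4a5 and Col4a6 by stage, and right, the ratio of each pair that shares a start region, with a point per library and a line through the stage means. Col4a1 and Col4a2 are at 72.1 RPKM or more in the 14 d and 21 d libraries while Col4a5 and Col4a6 stay at 34.8 RPKM or less throughout.

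These chains are encoded as head-to-head pairs, and the plot of collagen IV pairs them so. Col4a1 (chr8:11198423-11312826, minus strand) and Col4a2 (chr8:11312805-11449287, plus strand) start 21 bp apart and share 22 bases of first exon at chr8:11312805-11312826 on GRCm38.p6. These bases are shown in capitals on the plus strand because both annotations cover them.
shared start of Col4a1 and Col4a2: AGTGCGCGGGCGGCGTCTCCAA
Col4a4 and Col4a3 on chromosome 1 start 72 bp apart and Col4a6 and Col4a5 on chromosome X 1309 bp apart. Whether the counting used strand is not given in the sources used here, so reads over the shared bases of Col4a1 and Col4a2 cannot be assigned to one of them. Col4a3 had 2 to 10 counts per library and shares 563 exon bases with C430014B12Rik on the opposite strand, which had a mean of 400.1 counts, so its few counts are uncertain. Col4a4 had 5 to 23 counts and a log2 fold change of 0.27 (SE 0.57) at 21 d against subconfluent cells.

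Collagen VI, of which Col6a1, Col6a2 and Col6a3 encode the common chains, made up most of the summed RPKM of the members at every stage. Col6a1 had 629 and 636 RPKM in subconfluent cells, 648 and 591 RPKM in confluent cells, 509.7 and 853 RPKM at 24 h, 811 and 796 RPKM at 14 d and 583 and 562 RPKM at 21 d. Col6a2 had 268 and 268 RPKM, 299 and 269 RPKM, 272 and 401 RPKM, 385 and 363 RPKM, and 269 and 248 RPKM in the same order. Col6a3 had 168 and 167 RPKM, 178 and 163 RPKM, 86.0 and 174 RPKM, 216 and 212 RPKM, and 164 and 157 RPKM. The 14 d values of all these genes lay above those of subconfluent and confluent cells, the 21 d values within or below their range, and at 24 h replicate A was far under replicate B. None of the 3 passed the test at 21 d against subconfluent cells, where the log2 fold changes were -0.03, 0.07 and 0.06, the last of these turning to -0.10 and that of Col6a2 to -0.09 with library size alone. At 14 d against confluent cells Col6a2 passed the adjusted p but not 2-fold (0.61, SE 0.16, adjusted p = 0.0216), and Col6a1 and Col6a3 were at 0.59 (adjusted p = 0.0517) and 0.54 (adjusted p = 0.148). The ratio of Col6a1 to Col6a2 was 2.36 ± 0.017 (SD, n = 2) in subconfluent cells and 2.21 ± 0.068 (SD, n = 2) at 21 d in RPKM, and 1.24 and 1.16 in counts, since the exons merged over all transcripts are 4346 bp for Col6a1 and 8297 bp for Col6a2. The step between these chains therefore rests on the gene lengths used.

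The chains that can stand in for Col6a3 were far lower. Col6a5 had 4 and 1 counts in subconfluent cells, 0 and 1 in confluent cells, 6 and 11 at 24 h, 44 and 18 at 14 d and 61 and 148 at 21 d, a level of 0.186 and 0.198 RPKM at 21 d. It was called in both main comparisons (adjusted p = 9.05e-05 and 0.000425). The ratio of normalized counts at 14 d to confluent cells was 82.6, with a 95% interval from 14.3 to 3313 that covers counting error only. Col6a6 reached 0.053 RPKM at most and rose by a log2 fold change of 2.18 (SE 0.56, adjusted p = 0.0146) at 21 d against subconfluent cells, and Col6a4 fell by 1.83 (SE 0.44, adjusted p = 0.011) with 3 to 36 counts. The calls of Col6a4 and Col6a6 at 21 d hang on single libraries. Col6a4 was not called without subconfluent replicate B, 21d replicate A or 21d replicate B (adjusted p = 0.05, 0.0681 and 0.0522), nor Col6a6 without subconfluent replicate A, subconfluent replicate B or 21d replicate A (0.0678, 0.0858 and 0.0911). At 14 d against confluent cells Col6a6 lost its call without any one of the 4 libraries compared, with adjusted p from 0.0638 to 0.111. Col6a4, Col6a5 and Col6a6 lie side by side on chromosome 9 between 105687809 and 106096783.

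The short-chain genes went different ways. Col8a2, a chain of collagen VIII, had 181 and 194 RPKM in subconfluent cells, 146 and 155 RPKM in confluent cells, 124 and 166 RPKM at 24 h, 127 and 131 RPKM at 14 d and 102 and 96.8 RPKM at 21 d. Every 21 d library lay below every other one. Its log2 fold change at 21 d against subconfluent cells was -0.80 (SE 0.13, adjusted p = 0.00143), under 2-fold. Col8a1, the partner chain, lay between 26.1 and 67.3 RPKM, had 44.5 and 67.3 RPKM at 24 h, and had a log2 fold change at 21 d of -0.49 (SE 0.15, adjusted p = 0.0318). From 14 d (49.8 and 51.4 RPKM) to 21 d (26.9 and 26.1 RPKM) it fell by 1.01 on the log2 scale (SE 0.15, adjusted p = 0.00715), just past 2-fold. That call was lost in 11 of 20 alternatives, among them those without 14d replicate B, 21d replicate A or 21d replicate B (adjusted p = 0.0605, 0.0663 and 0.0686).

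Col10a1, which codes for collagen X and is best known from hypertrophic cartilage, was low until 14 d and high at 21 d. Its levels were 0.136 and 0.0786 RPKM in subconfluent cells, 0.0538 and 0.113 RPKM in confluent cells, 0.0502 and 0.0463 RPKM at 24 h, 0.118 and 0.212 RPKM at 14 d and 1.67 and 5.88 RPKM at 21 d. The 21 d libraries, with 192 and 1545 counts, did not overlap any other stage but differed between themselves more than any other replicates of a member at over 1 RPKM. The log2 fold change was 5.19 (SE 0.73, adjusted p = 0.000835) against subconfluent cells and 4.48 (SE 0.70, adjusted p = 0.00792) against 14 d, which share an index set. Without 14d replicate A or 14d replicate B the latter did not pass (adjusted p = 0.0859 and 0.0558). At 14 d against confluent cells the difference was 1.08 (SE 0.68, adjusted p = 0.275). Col10a1 shares 18 exon bases with Nt5dc1 on the opposite strand, which had a mean of 991.5 counts. Chondrocyte genes beside it were mixed. The summed level of 8 markers was 181.1 to 184.2 RPKM in subconfluent cells, 246.6 to 257.4 RPKM at 14 d and 119.1 to 126.3 RPKM at 21 d, mostly Col2a1, while Acan was at most 0.021 RPKM, Matn1 at most 0.029 RPKM and Ihh at most 0.169 RPKM. From subconfluent to 21 d libraries Sox9 went from 17.8 and 18 to 35.1 and 36.1 RPKM, Hapln1 from 4.81 and 5.60 to 9.26 and 11.6 RPKM and Snorc from 0 to 0.478 and 1.06 RPKM, while Matn3 went from 2.76 and 3.14 to 0.048 and 0.104 RPKM. Their part in the change of Col10a1 was not tested.

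**Figure D4:**
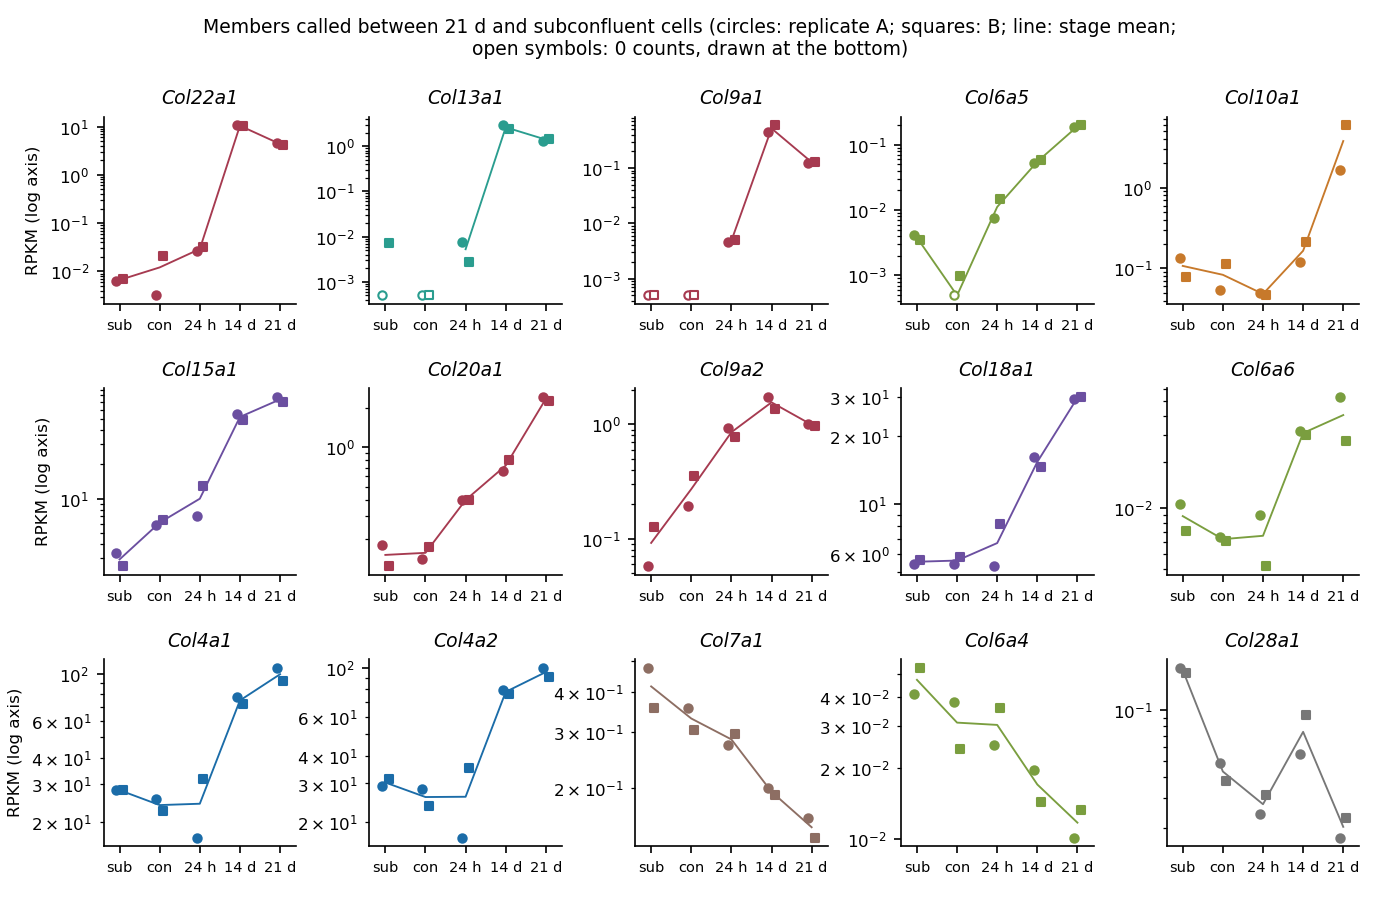
RPKM by stage of the 15 members called between 21 d and subconfluent cells, one panel per gene with its own log axis, circles for replicate A, squares for replicate B, open symbols for 0 counts and a line through stage means above 0. Col10a1 rises between 14 d and 21 d, Col22a1, Col13a1 and Col9a1 peak at 14 d, and Col15a1 and Col18a1 are highest at 21 d.

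The FACIT genes held both steady and strongly changed members. Col16a1 and Col12a1, which coat fibrils in soft connective tissue, were the abundant ones. Col16a1 had 94.0 and 102 RPKM in subconfluent cells, 133 and 127 RPKM in confluent cells, 140.1 and 154 RPKM at 24 h, 149.9 and 145 RPKM at 14 d and 165 and 146 RPKM at 21 d. Subconfluent libraries were below all others, and the log2 fold change at 21 d was 0.78 (SE 0.10, adjusted p = 0.000515), under 2-fold. Col12a1 lay between 44.7 and 97.3 RPKM and had a log2 fold change of -0.23 (SE 0.28, adjusted p = 0.538).

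Col22a1, a collagen of tissue junctions such as that of muscle and tendon, had the largest fitted change at 21 d against subconfluent cells. Its levels were 0.00627 and 0.00695 RPKM in subconfluent cells, 0.00317 and 0.0209 RPKM in confluent cells, 0.0266 and 0.0313 RPKM at 24 h, 10.5 and 10.3 RPKM at 14 d and 4.52 and 4.16 RPKM at 21 d. The early libraries held 1 to 23 counts and the late ones 1471 to 8771, so the sets do not overlap. The log2 fold change was 9.47 (SE 0.43, adjusted p = 6.41e-06) at 21 d against subconfluent cells, 9.57 (SE 0.40, adjusted p = 1.5e-05) at 14 d against confluent cells and 8.61 (SE 0.37, adjusted p = 4.98e-05) at 14 d against 24 h. From 14 d to 21 d it fell by 1.33 (SE 0.26, adjusted p = 0.0192), and that call was lost without any one library of subconfluent, 14 d or 21 d cells (adjusted p from 0.0587 to 0.143). Among all tested genes, those whose log2 CPM (counts scaled by library size) over the 10 libraries followed Col22a1 most closely were Hr, Steap4 and Rab11fip4, with Pearson's r of 0.996, 0.995 and 0.994. The libraries share stage and index set, so these are a description.

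Collagen IX is a trimer of the products of Col9a1, Col9a2 and Col9a3, and its genes differed in level and in which of them were called. Col9a1 (chr1:24177610-24252684) had 0 counts in all 4 subconfluent and confluent libraries, 2 and 2 at 24 h, 204 and 97 at 14 d and 22 and 52 at 21 d. It was at least 134-fold higher at 14 d than in confluent cells and at least 31.2-fold higher at 21 d than in subconfluent cells, with 3 counts over the group as the floor. In edgeR's test both were called (adjusted p = 0.000231 and 0.000174), and from 14 d to 21 d it fell by 2.09 (SE 0.31, adjusted p = 0.0148). That fall was not called without 14d replicate A, 14d replicate B, 21d replicate A or 21d replicate B (adjusted p from 0.0728 to 0.127). Col9a2 had 0.057 and 0.126 RPKM in subconfluent cells, 0.192 and 0.351 RPKM in confluent cells, 0.925 and 0.781 RPKM at 24 h, 1.75 and 1.36 RPKM at 14 d and 1.02 and 0.967 RPKM at 21 d. Neighbouring stages did not overlap up to 14 d, but none of these steps passed the test (confluent against subconfluent cells 1.67, adjusted p = 0.0993, 24 h against confluent cells 1.72, adjusted p = 0.0549, and 14 d against 24 h 0.99, adjusted p = 0.122), nor did 21 d against 14 d (-0.73, adjusted p = 0.315). Its log2 fold change was 3.65 (SE 0.45, adjusted p = 0.000434) at 21 d against subconfluent cells and 2.71 (SE 0.41, adjusted p = 0.00258) at 14 d against confluent cells. Col9a3 stayed between 0.047 and 0.184 RPKM, with a log2 fold change of 0.92 (SE 0.46, adjusted p = 0.138) at 21 d.

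Col20a1, another FACIT gene, had 0.180 and 0.124 RPKM in subconfluent cells, 0.142 and 0.174 RPKM in confluent cells, 0.396 and 0.399 RPKM at 24 h, 0.660 and 0.795 RPKM at 14 d and 2.43 and 2.24 RPKM at 21 d. The libraries of 24 h, 14 d and 21 d did not overlap with one another or with the earlier ones. Its log2 fold change was 4.03 (SE 0.24, adjusted p = 1.82e-05) at 21 d against subconfluent cells, 2.40 (SE 0.23, adjusted p = 0.000395) at 14 d against confluent cells and 1.61 (SE 0.22, adjusted p = 0.00427) at 21 d against 14 d. Without 14d replicate A the last did not pass (adjusted p = 0.0511). Col20a1 shares 79 exon bases on the same strand with BX649560.1, which had a mean of 141.6 counts beside 191.8 for Col20a1, so reads of the pair could be split by the counting. Col14a1 had at most 8 counts and Col19a1 at most 4, and neither passed the filter on low counts.

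Both multiplexins rose. Col15a1 had 3.32 and 2.55 RPKM in subconfluent cells, 5.84 and 6.48 RPKM in confluent cells, 7.02 and 13.0 RPKM at 24 h, 55.3 and 48.5 RPKM at 14 d and 78.3 and 69.6 RPKM at 21 d. Each stage lay above the one before it in both libraries. The log2 fold change was 4.77 (SE 0.29, adjusted p = 1.83e-05) at 21 d against subconfluent cells and 3.29 (SE 0.27, adjusted p = 0.000215) at 14 d against confluent cells. Within the index sets, confluent against subconfluent cells gave 1.04 (SE 0.25, adjusted p = 0.0809) and 21 d against 14 d 0.44 (adjusted p = 0.352). Col18a1, whose product yields endostatin, had 5.46 and 5.67 RPKM in subconfluent cells, 5.41 and 5.85 RPKM in confluent cells, 5.30 and 8.17 RPKM at 24 h, 16.2 and 14.7 RPKM at 14 d and 29.3 and 30.05 RPKM at 21 d. Subconfluent and confluent libraries overlapped and the late stages lay above them without overlap. It rose by 2.53 (SE 0.17, adjusted p = 2.47e-05) at 21 d against subconfluent cells and by 1.67 (SE 0.16, adjusted p = 0.000403) at 14 d against confluent cells, and its difference of 0.87 (SE 0.16, adjusted p = 0.0146) between 21 d and 14 d was under 2-fold.

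Of the transmembrane collagens, Col13a1, found at cell contacts and neuromuscular junctions, went from nearly no reads to a few RPKM. It had 0 and 1 counts in subconfluent cells, 0 and 0 in confluent cells, 3 and 1 at 24 h, 1177 and 355 at 14 d and 213 and 533 at 21 d. In RPKM the 14 d libraries had 2.87 and 2.36 and the 21 d libraries 1.33 and 1.46, and the late and early libraries do not overlap. It was at least 680-fold higher at 14 d than in confluent cells, with 3 counts over the group as the floor, and the ratio at 21 d to subconfluent cells was 944, with a 95% counting interval of 169 to 37320. Both were called (adjusted p = 0.000228 and 0.000118), and the difference of -0.97 (SE 0.42) from 14 d to 21 d did not pass (adjusted p = 0.226). Col17a1, a hemidesmosome collagen, lay between 0.393 and 0.771 RPKM and did not pass at 21 d (-0.15, SE 0.16, adjusted p = 0.645). Col23a1 had 5 to 52 counts and was at 0.95 (SE 0.38, adjusted p = 0.0747) at 21 d, and Col25a1 had 0 counts in 7 of 10 libraries.

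The genes that fell at 21 d against subconfluent cells were all under 0.5 RPKM. Col7a1, the anchoring fibril collagen of skin, had 0.476 and 0.356 RPKM in subconfluent cells, 0.357 and 0.303 RPKM in confluent cells, 0.273 and 0.296 RPKM at 24 h, 0.200 and 0.190 RPKM at 14 d and 0.162 and 0.140 RPKM at 21 d. Its stage means went down one after another, with overlap between subconfluent and confluent libraries only, and at 21 d it was lower than in subconfluent cells by a log2 fold change of -1.35 (SE 0.20, adjusted p = 0.00106). Within the index sets it did not pass (confluent against subconfluent cells -0.37, adjusted p = 0.404, and 21 d against 14 d -0.45, adjusted p = 0.227). Col28a1, known from nerve, had 0.178 and 0.166 RPKM in subconfluent cells and between 0.0176 and 0.0936 RPKM later, so that no later library overlapped the subconfluent ones. The log2 fold change at 21 d was -2.91 (SE 0.42, adjusted p = 0.000967). Col26a1 had 2 to 16 counts and was at -0.18 (SE 0.97).

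Neighbouring stages were compared in turn. In confluent against subconfluent cells 0 of 29 rose and 1 fell, Col28a1 (-2.03, SE 0.39, adjusted p = 0.041), where 1.43% of all genes were called (1% higher, 0.423% lower) and 3.28% passed at any fold change. Col28a1 was also the only member to pass at any fold change. In that comparison 3 members were higher at an unadjusted p under 0.05 in edgeR's test, and DESeq2 called 2 higher. The call of Col28a1 was lost in 13 of 19 alternatives, among them leaving out either subconfluent, confluent, 14 d or 21 d library (adjusted p from 0.0659 to 0.328), and without 24h replicate A or 24h replicate B 3 members were called. In 24 h against confluent cells 2 of 29 rose, Col20a1 (1.41, SE 0.23, adjusted p = 0.0165) and Col6a5 (6 and 11 counts against 0 and 1, adjusted p = 0.0202), where 2.13% of all genes were called, 1.76% higher and 0.365% lower. At any fold change 3 members passed, Col8a1 being the other, where 5.15% of all genes did. Without confluent replicate A or confluent replicate B 0 members were called, without 24h replicate A 4, without 24h replicate B 3, without 14d replicate A or B or 21d replicate A or B 1, and with only these stages in the fit 0. In 14 d against 24 h 10 rose and 1 fell, where 5.98% of all genes were called (4.47% higher, 1.51% lower) and 17.3% passed at any fold change, with 7 calls without 14d replicate A and 6 without 14d replicate B. Col23a1 was the gene that fell (-1.36, SE 0.37, adjusted p = 0.0449), a call lost in 15 of 18 alternatives. The 10 that rose were Col4a1, Col4a2, Col6a5, Col6a6, Col9a1, Col13a1, Col15a1, Col18a1, Col22a1 and Col28a1. The rise of Col28a1 (1.51, SE 0.40, adjusted p = 0.0405) was lost in 16 of 18 alternatives, that of Col6a6 in 14 and that of Col6a5 in 5. Col13a1 and Col22a1 kept their call in every alternative, and the others lost theirs in 1 or 2. At any fold change 11 members were higher and 2 lower. In 21 d against 14 d, within the late index set, 4 members were higher and 4 lower at any fold change, where 9.72% of all genes passed. With the 2-fold threshold 3 rose (Col10a1, Col6a5 and Col20a1) and 4 fell (Col22a1, Col9a1, Col28a1 and Col8a1), where 3.97% of all genes were called (1.52% higher, 2.45% lower). These 7 calls became 3 without subconfluent replicate A or B, 1 without 14d replicate A or B and 2 without 21d replicate A or B. Col6a5 (1.73, SE 0.39, adjusted p = 0.0342) and Col28a1 (-1.86, SE 0.42, adjusted p = 0.0348) were among those lost. In the test for any difference among the 5 stages 19 of the 29 members passed, where 48.9% of all genes did.

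The make-up of nonfibrillar collagen RNA shifted with these changes. In summed RPKM, beaded filament genes made up 67.2% and 66.4% in subconfluent and 58.2% and 59.2% in 21 d libraries. Basement membrane genes went from 6.80% and 6.90% to 14.1% and 13.4%, and the multiplexins from 0.555% and 0.510% to 6.17% and 6.10%, while short-chain genes went from 14.0% and 14.5% to 7.47% and 7.89%. FACIT genes had 11.3% and 11.5% in subconfluent and 13.9% and 13.3% in 21 d libraries. In each of these classes the subconfluent and 21 d libraries did not overlap. With 2 libraries against 2 this is weak, as the smallest p of an exact two-sided permutation test is 0.333. The shares are parts of one sum, so the classes are not separate observations.

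**Figure D5:**
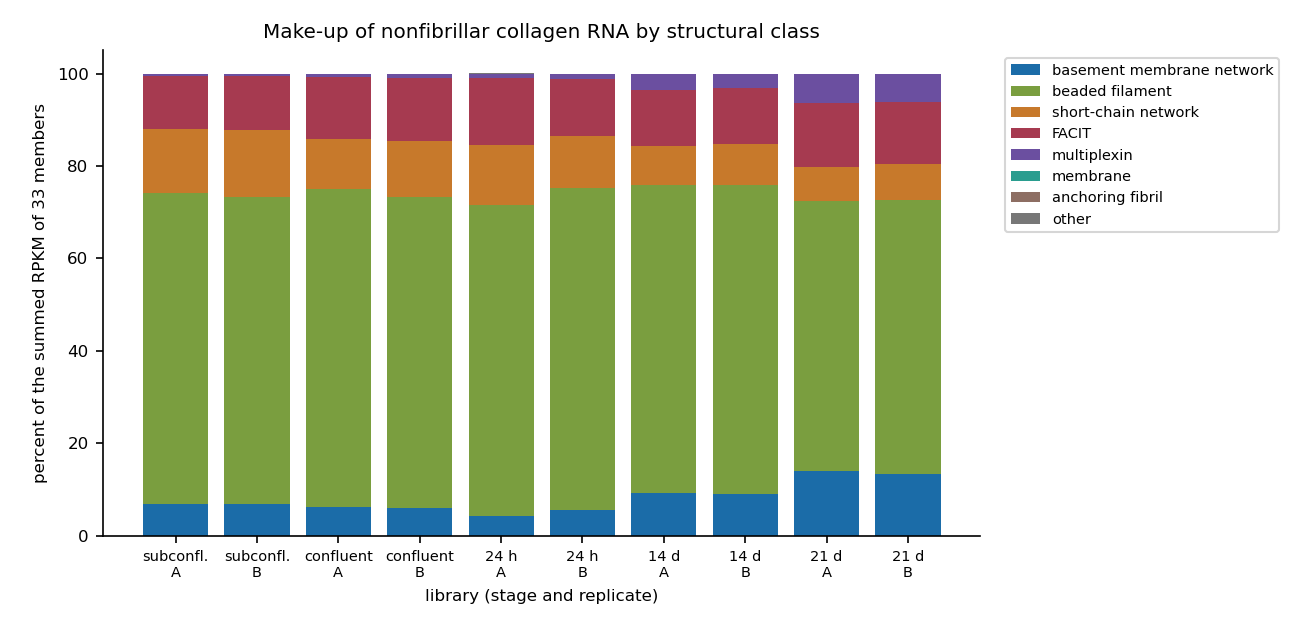
Percent of the summed RPKM of the 33 members held by each structural class, one stacked bar per library, with stages in order and replicates side by side. Beaded filament genes take the most in every bar, and the basement membrane and multiplexin segments are widest at 21 d.

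Nonfibrillar genes held 10.7% to 15.4% of the summed RPKM of the 44 collagen genes. By library the share was 13.2% and 13.8% for subconfluent cells, 12.9% and 12.4% for confluent cells, 14.9% and 14.8% for 24 h, 10.7% and 11.5% for 14 d and 15.4% and 15.3% for 21 d. The stages thus did not overlap in RPKM, whereas in counts with no length correction subconfluent (11.1% and 11.4%) and confluent libraries (11.1% and 10.6%) did. At 14 d the summed level of the members was 2113 and 2048 RPKM and that of the fibrillar genes 17602 and 15824 RPKM, and at 21 d these were 1745 and 1633 RPKM and 9591 and 9057 RPKM. The members' sum was thus at its highest stage mean at 14 d while their share was lowest there.

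Among the 11 fibrillar collagen genes 2 rose at 21 d against subconfluent cells, and at any fold change 4 were higher and 2 lower. For this list and those that follow, the share called over all genes at 21 d was 27.6%, with 16.3% higher and 11.3% lower. At any fold change 50.7% of all genes passed in that comparison. The largest rise was that of Col11a2 (7.62, SE 0.23, adjusted p = 2.46e-06). At 14 d against confluent cells 4 of the 11 rose, where 9.15% of all genes did, and from 14 d to 21 d 5 fell, where 2.45% did. Of 16 tested genes for basement membrane partners (laminins, nidogens, perlecan, agrin and others) 4 rose and 3 fell at 21 d. Lama1, a laminin chain, rose most (3.14, SE 0.70, adjusted p = 0.00781), and Nid1, a nidogen that links laminin to collagen IV, fell most (-1.87, SE 0.33, adjusted p = 0.00249). Of 10 collagen receptors 2 rose and 2 fell, with Itga10, an integrin chain, at 5.50 (SE 0.17, adjusted p = 2.46e-06) and Itga1, another, at -1.19 (SE 0.29, adjusted p = 0.0116). Of 16 enzymes and chaperones of collagen assembly 3 rose (8 higher and 2 lower at any fold change), and Colgalt2, a collagen galactosyltransferase, rose most (4.33, SE 0.79, adjusted p = 0.00301). The median log2 fold change at 21 d was 0.49 for the fibrillar genes, 0.43 for the basement membrane partners, 0.03 for the receptors and 0.60 for the assembly genes.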

How the data were processed

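RNA-seq of 51 bp paired-end reads was analysed for 10 libraries of MC3T3-E1 cells. The authors deposited counts of reads per gene without normalization and RPKM values, which per the file headers and values divide the counts by gene length and a number of reads. The counts were 1.44 to 1.60 times that number. The submitters' processing notes name FastQC, TopHat2 2.0.9, R 3.0.1 and the build mm10, and the counting tool and its strand setting are not given in the sources used here. For 2 libraries run in 2 lanes the merged column was used. Symbols and coordinates came from GENCODE vM21 (39547 of 40620 identifiers matched). The last row of the RPKM table was incomplete and was dropped, which left 40602 genes. Library groups came from the sample labels.

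Counts were filtered with filterByExpr, normalized by TMM and fitted with edgeR 4.0.16 in R 4.3.3 (glmQLFit and glmQLFTest, 5 groups, 10 libraries), and all p-values were adjusted over the 20808 genes tested. Standard errors were taken as the absolute log2 fold change over the root of the F statistic. A member at 0 counts in the stage compared against is given a lower bound with 3 counts over the group, and at 1 to 3 counts a ratio with an exact 95% interval. Both use TMM-scaled totals and cover counting error only. Full values are given for members called in the main comparisons with a stage mean of at least 1 RPKM and for the 5 of highest mean, and other members by ranges or counts. Of companion lists, counts and the called gene with the largest rise and fall are given. The scripts were tested on simulated data. The alternatives were DESeq2 size factors, library size alone, DESeq2 1.42.0, other filters and thresholds, fewer stages, limma 3.58.1 on log2(RPKM + 1) and log2(RPKM + 0.1), a replicate block and leaving out each replicate. The members and lists were chosen with earlier results of these data known.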

Additional observations from a re-analysis of the deposited data

How the results depend on the processing

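No call of a member in the 6 comparisons reversed under any alternative. Of the members called at 21 d against subconfluent cells 8 of 15 and at 14 d against confluent cells 7 of 11 kept their 2-fold call in every alternative in which they could be tested, and those lost at least once were Col6a4, Col6a5, Col6a6, Col7a1, Col9a1, Col9a2 and Col28a1 in the first and Col6a5, Col6a6, Col9a1 and Col20a1 in the second. In 14 d against 24 h 2 of 11 calls were kept so, and in 21 d against 14 d 0 of 7. In 24 h against confluent cells 0 of 2 were, and in confluent against subconfluent cells 0 of 1. Of 79 fold changes followed, 10 that were not called changed sign, among them Col6a2 and Col6a3 at 21 d against subconfluent cells under library size alone (-0.09 and -0.10). Library size alone moved the median of all genes to -0.12 at 21 d against subconfluent cells, -0.20 at 14 d against confluent cells and -0.13 at 24 h against confluent cells. The counts of members called were 15 (21 d against subconfluent), 11 (14 d against confluent), 1 (confluent against subconfluent), 2 (24 h against confluent), 11 (14 d against 24 h), 7 (21 d against 14 d) and 19 (any of the 5 stages). With at least 10 counts in every sample they became 7, 7, 0, 2, 5, 1 and 11, where 17 members could be tested. Over all 16133 genes tested then, the first 6 comparisons gave 4252, 1784, 261, 376, 732 and 705 calls. With limma on log2(RPKM + 1), which shrinks low genes, the first 6 became 8, 7, 0, 0, 6 and 2, and with log2(RPKM + 0.1) comparisons from the third on became 0, 1, 7 and 4. Over 20795 genes tested with log2(RPKM + 0.1), the latter comparisons gave 255, 357, 1115 and 848 calls. Confluent against subconfluent cells gave 0 with library size alone and with no filter, 3 with DESeq2 and without the 24 h stage, and 2 with only the groups compared. With only the groups compared, 24 h against confluent cells gave 0 and 14 d against 24 h gave 3. At more than 4-fold, 21 d against subconfluent gave 11 and 14 d against confluent 8 (Col4a1 and Col4a2 failed it in both, Col6a4 and Col7a1 in the first and Col18a1 in the second), and 24 h against confluent, 14 d against 24 h and 21 d against 14 d gave 1, 6 and 2. Beyond the filters' and the pseudocounts' own construction, the cause was not tested. Leaving out each replicate in turn gave 13 to 15, 10 to 11, 0 to 3, 0 to 4, 6 to 12, 1 to 7 and 16 to 24.

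The labels do not say whether the replicate letters pair samples across stages. Within each index set the letter goes with the library index. The differences of A and B correlated between stages from -0.33 to 0.32, and such values of mixed sign cannot settle whether the samples are paired. With the replicate block the counts were 15, 11, 0, 2, 9, 5 and 17. Over all 20808 genes tested the first 6 were 5550, 2502, 213, 320, 1039 and 731. Counts in place of RPKM gave shares of nonfibrillar genes of 11.24%, 10.84%, 12.12%, 9.425% and 12.94% from subconfluent to 21 d, Col4a1 to Col4a2 ratios of 1.056, 1.045, 1.071, 1.088 and 1.176, and Col6a1 to Col6a2 ratios of 1.237, 1.143, 1.047, 1.127 and 1.16. Over all genes, the 297 called in confluent against subconfluent cells became 464 with DESeq2, 495 without the 24 h stage and 128 with log2(RPKM + 1). The 443 in 24 h against confluent cells became 686 with DESeq2, 178 with log2(RPKM + 1) and 0 with only these groups, and the 1245 in 14 d against 24 h became 732 with at least 10 counts, 500 with log2(RPKM + 1) and 319 with only these groups. Without 24h replicate B these 443 became 2388 and these 1245 became 3055, and over all replicates left out the lowest were 141 (without confluent replicate A) and 627 (without 14d replicate B). For confluent against subconfluent cells that range was 107 (without subconfluent replicate A) to 485 (without 24h replicate B), and for 21 d against 14 d the lowest was 544 (without 21d replicate A), and the 10173 that differed among the 5 stages became 15743 without 24h replicate B. At 14 d against confluent cells 2705 became 1784 with at least 10 counts and 1343 with log2(RPKM + 1), at 21 d against subconfluent cells 5740 became 3396 and at 21 d against 14 d 826 became 537 with log2(RPKM + 1). The members with at most 10 counts were removed by the filter, and with no filter all 33 members were tested and 15, 11, 0, 2, 8 and 5 were called in the 6 comparisons. Over the 29687 genes tested then, 5757, 2597, 289, 408, 1195 and 800 were called in the same order.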
